A study of Mus musculus with 8 samples.

Results

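Genes of the antioxidant and detoxification response that is classically driven by the transcription factor NRF2 were examined in N2a cells with Grp94 knockdown. The set holds 33 genes, of which 11 had a value in the deposited table and 22 did not. All 11 were lower in the knockdown, from Ephx1, which was 2.38-fold lower, to Fth1, which was 1.12-fold lower, in a table where 59.9% of all transcript clusters were lower. The genes were chosen by their known function and with earlier results of this same comparison in view. A gene has a value only because it passed the authors' limits on expression and on the adjusted p-value of the difference. The direction and size of these differences are therefore described here, and no test was applied to them.

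N2a (neuro2a) cells derive from a mouse neuroblastoma. By the labels, 4 Affymetrix Mouse Gene ST arrays hold RNA of cells with a control named only as vector, which is taken here to be the empty vector. The other 4 hold RNA of cells with knockdown of Grp94, the endoplasmic reticulum (ER) chaperone encoded by Hsp90b1. The knockdown vectors express an artificial microRNA against Grp94, as the study's methods state. Per the study's methods, cells were transfected transiently with Lipofectamine and kept for 2 more days, more than 1 Grp94 construct and more than 1 control vector were in use, and the vector backbone also expresses a green fluorescent protein, so that control cells carry it too. Neither the construct nor the control vector on each array is given in the labels, and nothing in them says whether the 4 arrays of a group came from separate cultures. The share of cells that took up a vector was not given either, so a decrease in every cell and a larger decrease in some cells cannot be told apart.

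NRF2 is a transcription factor that is held in the cytoplasm by KEAP1 and degraded through a CUL3 ubiquitin ligase until oxidants or electrophiles modify KEAP1. NRF2 then enters the nucleus, pairs with a small MAF protein and binds antioxidant response elements (AREs), where BACH1 competes with it as a repressor. Its targets conjugate and reduce reactive compounds, keep thioredoxin and peroxiredoxins working, break down heme and store iron, and produce the NADPH on which the reducing enzymes run.

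The deposited table gives, for each transcript cluster (the unit in which the array groups the transcripts of a gene), the authors' mean of each group on a log2 scale, centred on that transcript cluster. The centring removes the level of expression, so genes cannot be ranked by abundance. The means come without a spread between arrays, and no standard deviation can be given for any value below. The difference used throughout is the knockdown mean minus the empty vector mean. The table holds 2395 transcript clusters, and 59.9% of them were lower in the knockdown, with a median difference of -0.16 over all of them. Hsp90b1 itself (transcript cluster 10371482) had a mean of 0.74 with the empty vector and -0.78 in the knockdown, 2.87-fold lower, in the direction that the labels give. Of 14 neuronal and neuroblastoma markers looked up, 5 had a row (Hand2, Th, Dbh, Gap43 and Stmn2), with differences from -0.20 to 0.49, but centred values do not show how strongly any marker was expressed.

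The promoters of the members are shown first, because the members are grouped by a factor that acts on promoter sequence. Windows of 300 bases (250 before to 50 after a transcription start, RefSeq, build GRCm38.p6) were found for 8 of the 11 members with a value. Abcc1, Prdx6 and Hmox1 had none. The ARE core was searched as TGACNNNGC on either strand and, more loosely, as TGANNNNGC, which includes every match of the first. Matches of both forms can overlap the AP-1 motif TGAGTCA. The CCAAT box, the site of the factor NF-Y that the wider study is about, was searched as CCAAT, and the core of the hypoxia response element as ACGTG. The search for these last motifs was added after the values had been seen.

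The stretches below hold the 250 bases before the start of 5 members, written 5′ to 3′ in the direction of the gene, with matches to either form of the ARE core and to CCAAT in capitals (a match on the opposite strand reads as its reverse complement, ATTGG for CCAAT). Ephx1 is shown as the member with the largest difference (chr1:181017570-181017819, minus strand), Gstm2 and Cat for repeated CCAAT boxes (chr3:107986421-107986670 and chr2:103485154-103485403, both minus strand), and Gstp1 and G6pdx as the members with an ARE-like match (chr19:4037913-4038162 and chrX:74428881-74429130, both minus strand).
Ephx1: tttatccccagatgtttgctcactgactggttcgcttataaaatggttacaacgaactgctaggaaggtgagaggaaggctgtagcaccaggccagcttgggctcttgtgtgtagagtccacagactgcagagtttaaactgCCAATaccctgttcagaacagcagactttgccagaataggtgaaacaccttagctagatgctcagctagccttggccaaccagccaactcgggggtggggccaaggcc
Gstm2: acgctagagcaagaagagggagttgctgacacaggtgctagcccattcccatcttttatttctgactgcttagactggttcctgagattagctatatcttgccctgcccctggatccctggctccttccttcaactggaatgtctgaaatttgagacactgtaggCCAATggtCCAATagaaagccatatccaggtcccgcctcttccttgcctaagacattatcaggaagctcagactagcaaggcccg
Cat: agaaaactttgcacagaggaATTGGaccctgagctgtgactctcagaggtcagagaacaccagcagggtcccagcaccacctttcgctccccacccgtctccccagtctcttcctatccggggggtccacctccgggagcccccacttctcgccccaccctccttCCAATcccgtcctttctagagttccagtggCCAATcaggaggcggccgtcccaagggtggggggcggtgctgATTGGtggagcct
Gstp1: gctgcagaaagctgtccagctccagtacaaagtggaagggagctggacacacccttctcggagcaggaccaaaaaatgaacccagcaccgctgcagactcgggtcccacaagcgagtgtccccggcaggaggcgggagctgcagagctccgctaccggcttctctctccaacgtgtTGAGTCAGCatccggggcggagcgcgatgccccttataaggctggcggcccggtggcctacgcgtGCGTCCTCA
G6pdx: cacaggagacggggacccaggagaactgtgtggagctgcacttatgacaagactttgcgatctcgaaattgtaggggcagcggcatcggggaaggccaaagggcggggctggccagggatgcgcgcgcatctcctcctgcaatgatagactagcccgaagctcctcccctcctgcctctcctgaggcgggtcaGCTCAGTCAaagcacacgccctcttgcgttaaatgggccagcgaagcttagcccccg

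Only G6pdx, of the 8 members with both a value and a promoter, held TGACNNNGC, as the reverse match GCTCAGTCA beginning 57 bases upstream of the start. This is 12.5% of the 8 genes, beside 14.0% of all 27025 genes with a promoter and 18.5% of the 1660 genes with a row and a promoter. Among the members without a row, 7 of 20 genes (35.0%) held it, including Prdx1 (GCTGAGTCA, 133 bases upstream), Gsta3 (TGACATTGC, 121 bases upstream) and Txnrd1 (GCTTTGTCA, 92 bases upstream of its second listed start). The Prdx1 match contains the AP-1 motif TGAGTCA. The looser form was found in Gstp1 and G6pdx, 25.0% of the 8 genes, beside 45.0% of all genes and 49.2% of genes with a row. Gstp1 had 3 such matches, of which TGAGTCAGC, 74 bases upstream, overlaps the AP-1 motif, and the same letters stood 89 bases upstream in its neighbour Gstp2. Such windows reach only 250 bases before the start, so these counts say nothing about elements farther away.

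CCAAT was found in 6 of the 8 members with a value (75.0%), beside 41.1% of all genes, 49.7% of genes with a lower row and 38.9% of genes with a higher row. Among members without a row it was in 8 of 20 (40.0%). Cat had 4 matches, beginning 230, 85, 55 and 13 bases upstream of the start. Gstm2 had a pair at 85 and 77 bases upstream, Ephx1 had 1 match at 108 bases and Ptgr1 had 1 at 125 bases. Gstm1 held CCAAT before each of its listed starts and Fth1 before the second of its starts, whereas Gstp1 and G6pdx had none. Gstp2, which shares a transcript cluster with Gstp1, had a CCAAT 117 bases upstream. ACGTG was found in Gstm1, Gstp1 and G6pdx, 37.5% of the 8 genes, beside 21.8% of all genes, 30.8% of genes with a row and 31.6% of genes with a lower row. A gene with several starts had more windows to match in, and counted by window CCAAT stood in 7 of 10 windows of the members with a value and in 37.4% of all 32851 windows. With 8 genes, each gene moves these percentages by 12.5 points, and a match of letters does not show that a factor binds there.

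**Figure D1:**
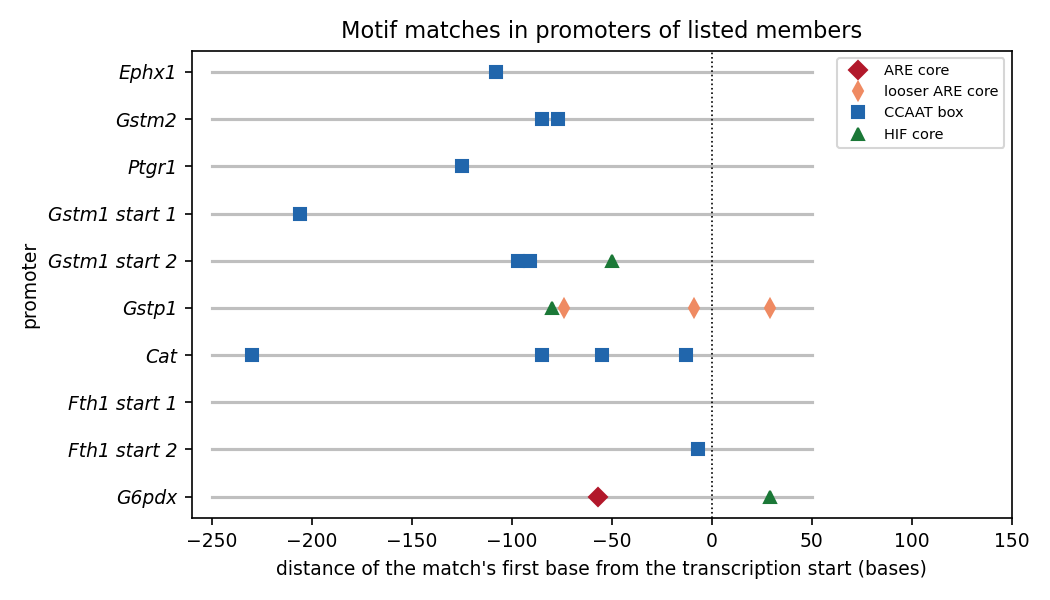
Positions of motif matches in the 10 promoter windows of 8 listed members. The horizontal axis is the distance of the first base of each match from the transcription start in bases, each grey line is 1 window, and Gstm1 and Fth1 have 2 starts each. CCAAT boxes (squares) lie in 7 of the windows, the ARE core (diamond) in that of G6pdx alone, further matches of the looser ARE core (narrow diamonds) in that of Gstp1, and ACGTG, labelled HIF core (triangles), in 3 windows.

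Of 16 conjugation and detoxification genes 5 had a row, and all 5 were lower, with a median difference of -0.47 on the log2 scale. Past a fold change of 1.3 there were 4 of them, and over all members with a value 6 of 11 were lower past this threshold, beside 16.1% of all transcript clusters in the table. Since the same comparison decided which genes have a row, nothing is read from that contrast of shares.

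Ephx1 encodes microsomal epoxide hydrolase, which opens reactive epoxides to diols. Its mean was 0.60 with the empty vector and -0.65 in the knockdown (transcript cluster 10360684, chromosome 1, 182919687 to 182947652, minus strand, 29 probes). The difference of -1.25 was the ninth lowest of the 2395 transcript clusters, and Ephx1 was the only listed member to differ by more than 2-fold. Only 20 transcript clusters in the table were lower by more than 2-fold.

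Ptgr1 encodes prostaglandin reductase 1, which reduces the reactive double bond of lipid-derived alkenals and of leukotriene and prostaglandin metabolites. Its mean was 0.24 with the empty vector and -0.23 in the knockdown, a difference of -0.47 or 1.38-fold (chromosome 4, 58978462 to 58999950, minus strand, 33 probes).

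The mu-class glutathione transferases Gstm1 and Gstm2 conjugate glutathione to electrophiles and lie side by side on chromosome 3. Gstm2 had a mean of 0.28 with the empty vector and -0.27 in the knockdown, a difference of -0.55 or 1.47-fold (107784617 to 107789371, minus strand). Gstm1 had a mean of 0.26 with the empty vector and -0.19 in the knockdown, a difference of -0.45 or 1.36-fold (107815173 to 107820891, minus strand). Another mu-class gene, Gstm7, which is outside the member set, also had a row, with a difference of -0.43. The 3 transcript clusters lie within 91.6 kb, and the other mu-class genes of the locus in RefSeq (Gstm3, Gstm4, Gstm5 and Gstm6) had no row.

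Gstm1 and Gstm2 were read by 14 probes each, where the median over the table was 30 and only 2.26% of the 2387 transcript clusters with a probe number had fewer than 15. Transcript clusters with fewer than 15 probes had a median difference of -0.21. Mu-class genes are close in sequence, and how far their probes cross-hybridise was not tested, so the 3 values may not be independent measurements.

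The pi-class transferase Gstp1, a major cytosolic transferase, could not be read alone. Its transcript cluster also carries Gstp2 (37 probes, chromosome 19, 4040294 to 4042221, minus strand), and how far the probes read each gene was not tested. The shared value was 0.12 with the empty vector and -0.18 in the knockdown, a difference of -0.30 or 1.24-fold.

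The remaining 11 genes of this group had no row. These were the alpha-class transferases Gsta1, Gsta2, Gsta3 and Gsta4, the mu-class Gstm3, the membrane-bound transferase Mgst1, the quinone reductase Nqo1, the carbonyl reductases Cbr1 and Cbr3, the aldehyde oxidase Aox1 and Esd, an esterase that completes the glutathione-dependent clearance of formaldehyde. A gene can lack a row because it was excluded for low expression or because its adjusted p-value did not meet the authors' limit. It may also not be in the table as given here. These reasons cannot be told apart, and a missing row does not show that a gene was unchanged.

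**Figure D2:**
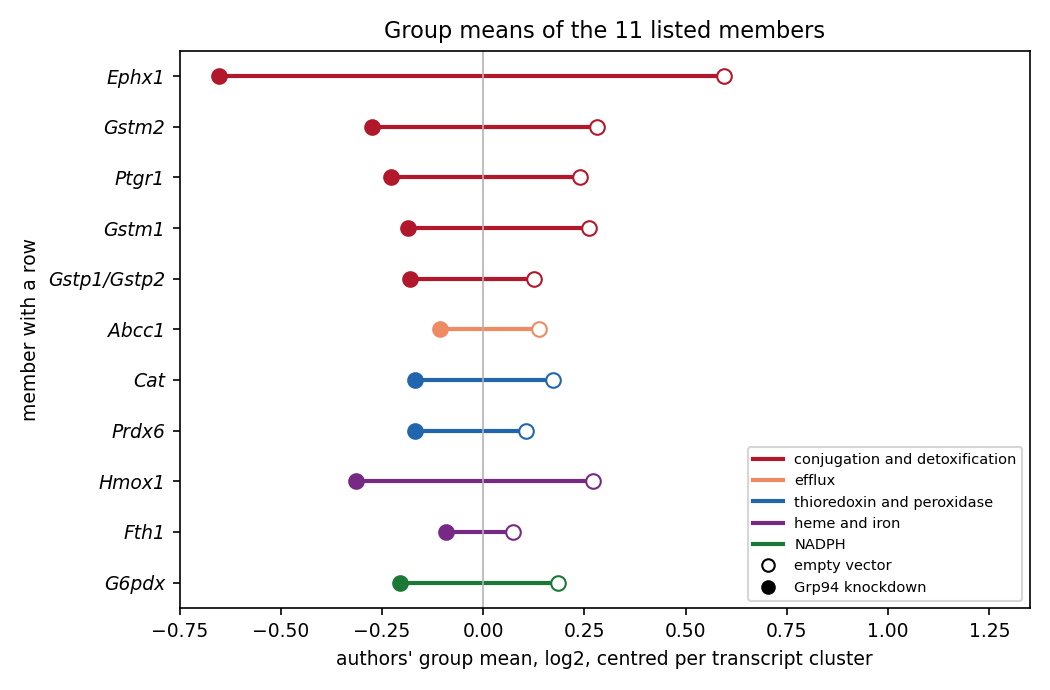
Authors' group means of the 11 listed members. The horizontal axis is the log2 mean centred on each transcript cluster, open circles are the empty vector, filled circles the Grp94 knockdown, and colours mark the functional group. No error bars are drawn because no spread between arrays was given. The knockdown mean lies below the empty vector mean for every listed member, and the widest gap is that of Ephx1.

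Of the heme and iron genes, Hmox1 and Fth1 had a row and Ftl1 and Slc48a1 had none. Hmox1 encodes heme oxygenase 1, which cleaves heme to biliverdin, iron and carbon monoxide. Its mean was 0.27 with the empty vector and -0.31 in the knockdown, a difference of -0.58 that left it just under a fold change of 1.5 (chromosome 8, 77617521 to 77624489, plus strand, 25 probes). This was the second largest difference among the members.

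Fth1, the ferritin heavy chain that oxidises iron for storage, had the smallest difference of the members. Its mean was 0.07 with the empty vector and -0.09 in the knockdown, a difference of -0.17 or 1.12-fold (chromosome 19, 10057193 to 10059583, plus strand, 16 probes). The value of Fth1 was close to the median of -0.16 over the whole table. Ferritin heavy chain has many processed pseudogenes in the mouse genome, so its probes may also read these copies.

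In the thioredoxin and peroxidase group 2 of 6 genes had a row, and neither passed a fold change of 1.3. Cat encodes catalase, the peroxisomal enzyme that splits hydrogen peroxide. Its mean was 0.17 with the empty vector and -0.17 in the knockdown, a difference of -0.34 or 1.27-fold (chromosome 2, 103294064 to 103325280, minus strand, 31 probes), which places it just outside that threshold. Prdx6, a peroxiredoxin that draws on glutathione and reduces phospholipid peroxides, had a mean of 0.11 with the empty vector and -0.17 in the knockdown. Its difference was -0.28 or 1.21-fold (chromosome 1, 163170243 to 163181297, minus strand, 21 probes). The genes of the thioredoxin cycle in the strict sense had no row. These were thioredoxin itself (Txn1), its reductase (Txnrd1), Prdx1, which thioredoxin recycles, and Srxn1, which repairs overoxidised peroxiredoxins.

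G6pdx was the only NADPH gene of 4 with a row. It encodes glucose-6-phosphate dehydrogenase, which makes NADPH at the entry of the pentose phosphate pathway. Its mean was 0.19 with the empty vector and -0.20 in the knockdown, a difference of -0.39 (chromosome X, 71654825 to 71674500, minus strand, 20 probes). At 1.31-fold it lay just inside the threshold of 1.3. The retrogene G6pd2 on chromosome 5, an intronless copy of G6pdx, had a difference of -0.30, and whether its probes also read G6pdx was not tested. Pgd, Tkt and Taldo1, which carry the pathway onward, had no row.

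Abcc1, an efflux pump for glutathione conjugates, had a mean of 0.14 with the empty vector and -0.11 in the knockdown, a difference of -0.24 or 1.18-fold (chromosome 16, 14361653 to 14474968, plus strand, 33 probes). The related pump Abcc4 and the oxidative stress-induced growth inhibitor Osgin1 had no row.

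Set side by side, the groups overlapped. Differences ran from -1.25 to -0.30 among conjugation and detoxification genes, from -0.58 to -0.17 among heme and iron genes, and from -0.34 to -0.28 among thioredoxin and peroxidase genes. Their medians were -0.47, -0.38 and -0.31, and the only NADPH gene had -0.39. With 5, 2, 2 and 1 genes and no value per array, no difference between the groups was tested. Among the 239 of 2395 transcript clusters with the lowest differences stood 4 of the 11 members, namely Ephx1, Hmox1, Gstm2 and Ptgr1. Nothing is read from this count either, since the same comparison decided which genes have a row.

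**Figure D3:**
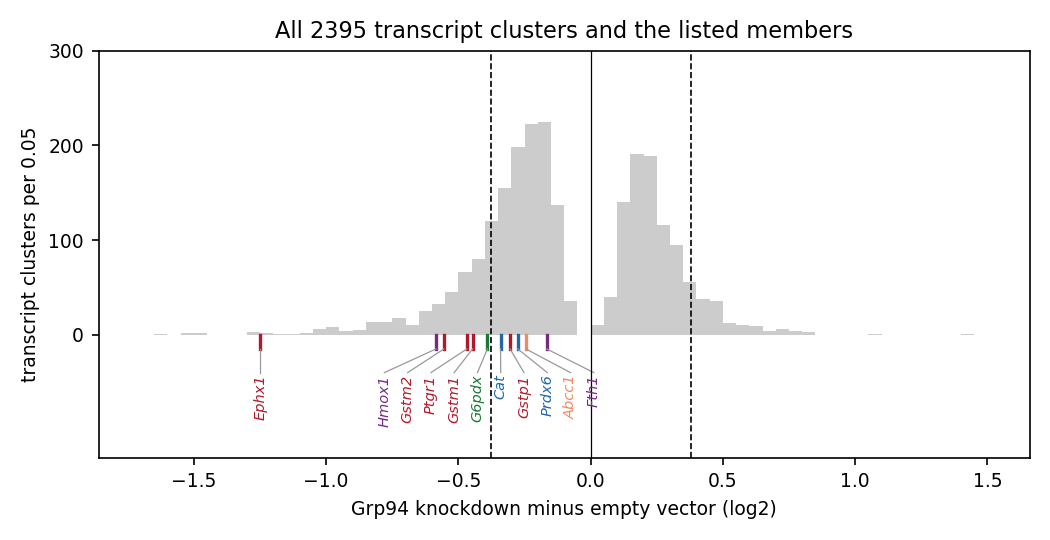
Differences of all transcript clusters and of the listed members. The horizontal axis is the knockdown minus empty vector difference on the log2 scale, the grey bars count transcript clusters in steps of 0.05, and the coloured ticks under the bars mark the 11 listed members in the colours of their functional groups. Dashed lines mark a fold change of 1.3. Only 10 transcript clusters differ by less than 0.05 in either direction, in a table that keeps those within the authors' limit, and 6 members lie beyond the dashed line on the lower side.

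Genes of the same pathway outside the member set were then read from lists of 141 genes, of which 35 had a row, 28 of them lower and 7 higher, with a median difference of -0.28. Gstp2 is among the lower ones with the value that it shares with the member Gstp1, so that value is counted in both sets. Of all transcript clusters 59.9% were lower and the median was -0.16, which is the background for the counts of each list. Of 15 regulators of NRF2 5 had a row, 4 of them higher in the knockdown, and only Sqstm1, a selective autophagy receptor that binds KEAP1, was lower (-0.19). Bach1 and Bach2, repressors that bind the same elements as NRF2, had differences of 0.22 each. The coactivators Crebbp and Ep300, acetyltransferases that serve many transcription factors, had 0.41 and 0.27. Of these regulators Crebbp alone passed a fold change of 1.3. Nfe2l2, the gene of NRF2, and Keap1 had no row.

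Bach1 had a mean of -0.13 with the empty vector and 0.09 in the knockdown, and Crebbp had -0.21 and 0.20. No link between these values and those of the members was tested.

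Of 27 other enzymes for carbonyls and quinones 9 had a row, 8 lower and 1 higher. The largest differences were those of Cyb5r1 (-0.98), a cytochrome b5 reductase, and of the aldo-keto reductases Akr1b8 (-0.65) and Akr1b10 (-0.48), which reduce aldehydes to alcohols. Cbr4, a mitochondrial carbonyl reductase, was the higher one (0.19).

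Of 25 other thioredoxin, peroxiredoxin, peroxidase and dismutase genes 5 had a row, 4 lower and 1 higher. The largest were Sesn2 (-0.47), a stress-induced sestrin, Glrx (-0.47), a glutaredoxin that removes glutathione from protein thiols, and Sesn3 (-0.29). The mitochondrial glutaredoxin Glrx5, which serves iron-sulfur cluster assembly, was higher (0.23). Neither superoxide dismutase of the list (Sod1 and Sod2) had a row.

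Other heme and iron genes were lower in all 4 cases with a row, out of 25. Tfrc, the transferrin receptor through which cells take up iron, had -0.37, Abcb10, a mitochondrial transporter linked to heme synthesis, had -0.31, and Hebp1, a heme-binding protein, had -0.27. Other NADPH genes were lower in all 4 cases out of 15, among them Idh1 (-0.21), the cytosolic isocitrate dehydrogenase, and the malic enzyme Me1. The symbol Me1 stood on 2 transcript clusters with differences of -0.29 each, 1 on chromosome 9 (86474983 to 86589834) and 1 over a far shorter stretch of chromosome 13 (62915449 to 62916150). Whether the latter reads Me1 itself was not tested, so the values may not be independent measurements of it. Of 17 other glutathione transferases, Gstm7 and the shared value of Gstp2 were the only ones with a row, and none of 7 other efflux genes had one.

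Genes of cystine uptake and glutathione, which supply the substrate of the transferases, had a row in 6 of 10 cases, 5 lower and 1 higher. Cth, which makes cysteine from cystathionine, had -1.46 and Slc7a11, the cystine carrier, had -1.30, so that both lay below Ephx1. Chac1, which degrades glutathione, had -0.55, whereas Gclc, the catalytic subunit of the first enzyme of glutathione synthesis, had -0.10. Slc3a2 had -0.20, and Cbs was the higher one (0.20), so the list did not move as a whole.

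**Figure D4:**
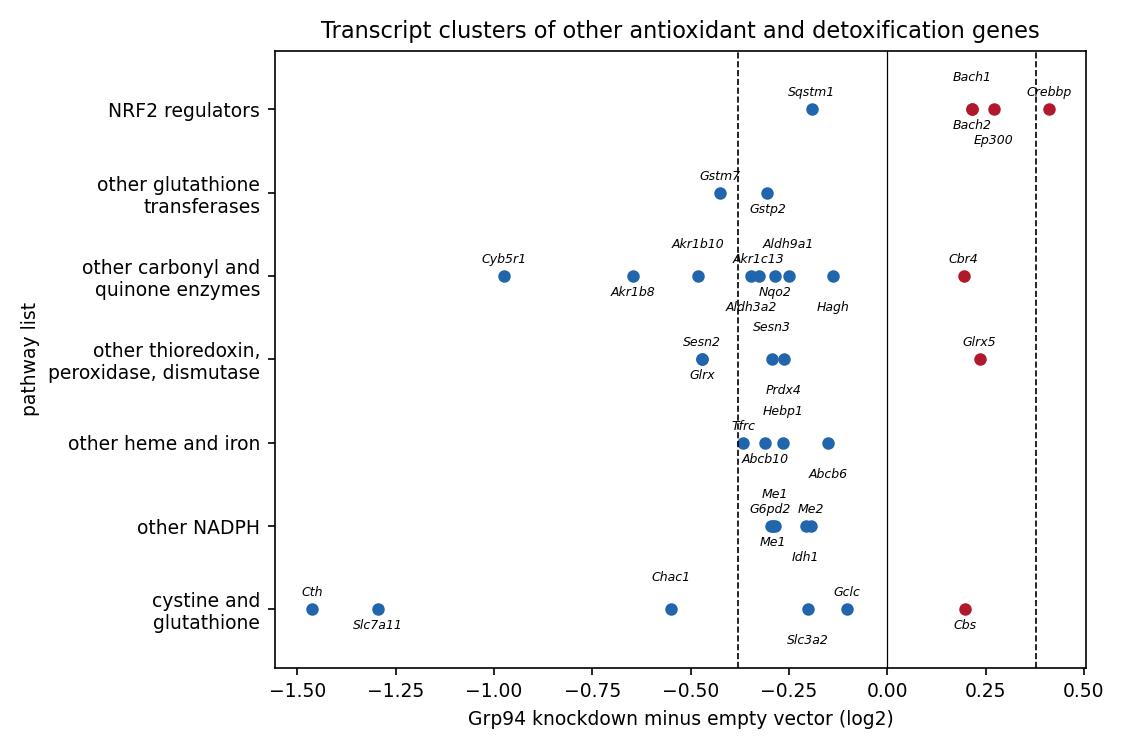
Differences of transcript clusters of other antioxidant and detoxification genes, by list. The horizontal axis is the knockdown minus empty vector difference on the log2 scale, each point is 1 transcript cluster with a row in the table, blue is lower and red is higher in the knockdown, and dashed lines mark a fold change of 1.3. The point of Gstp2 is the value that it shares with the member Gstp1. Of the 5 NRF2 regulators 4 lie on the higher side, while the other lists lie mostly on the lower side.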

How the data were processed

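RNA of transfected N2a cells had been labelled with biotin and hybridised to 8 Affymetrix Mouse Gene ST arrays (4 per group), and was analysed by the authors in Agilent GeneSpring GX. Genes under the 20th percentile of expression had been excluded by the authors. The deposited values used here are the authors' log2 group means, centred per transcript cluster. Summarization of probes, normalization, software version and genome build are not given in the sources used here. The deposited table also holds the authors' own p-values, q-values and fold changes, which were not used, except to check that 0 rows had an adjusted p above 0.01. Its coordinates are printed as deposited, and overlapped the GRCm38.p6 gene for only 2 of 11 members. Depth does not apply to arrays, and their small number limits the precision.

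The difference of both group means was computed for each transcript cluster. A gene with several transcript clusters was given their mean in counts and medians. Members were matched by symbol, and a match by Entrez identifier added 0 members. Every member with a row, every NRF2 regulator with a row, Hsp90b1 and the 3 largest differences of each other pathway list were to be named. Genes named beyond this rule (Cbr4, Glrx5, Gclc, Slc3a2, Cbs, Akr1b7 and pathway genes without a row) were picked after their values were seen. The members and lists were chosen with earlier results of these data known. The fold threshold was 1.3. Alternatives changed the threshold, the use of transcript clusters with several symbols, the zero point, the row taken per gene and the ARE motif. Calculations used Python 3.11.15, numpy 2.4.6 and pandas 2.3.3, and plots matplotlib 3.10.9. The code was run on simulated differences without array noise and on motifs planted in a string of A only. Such a run checks the calculation itself and not how it performs on real arrays or promoters.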

Additional observations from a re-analysis of the deposited data

How the results depend on the processing

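At a fold change over 1.2 there were 9 listed members lower in place of 6, and over 1.5 there was 1, since Hmox1 lay just below. Re-centring on the median of the table left 3 past 1.3. It shifted every value by the same amount, so that the medians became -0.23 for all listed members and -0.30 for conjugation and detoxification. They were -0.14 for thioredoxin and peroxidase, -0.21 for heme and iron and -0.23 for NADPH. All 11 listed members were still lower, but Fth1 (-0.1660) lay almost on the table median (-0.1645), so its direction after re-centring is not secure. Without transcript clusters of several symbols the count past 1.3 was again 6, and the medians were -0.42 for all listed members and -0.51 for conjugation and detoxification, while those of the other groups did not move. Taking the row with the largest difference per gene moved no median, since each listed member has 1 row. The looser ARE core was found in 2 listed members in place of 1. No paired analysis was possible because only group means were used, and for the same reason no array could be left out and no replicate error is known. The zero point of the differences cannot be checked without the transcript clusters that have no row.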

Other observations

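The aldo-keto reductase genes Akr1b7, Akr1b8 and Akr1b10 lie within 69.0 kb on chromosome 6 in the coordinates of the table, and all 3 had a row, with differences of -0.38, -0.65 and -0.48 on the log2 scale. Akr1b7 was looked up only after the values of its neighbours had been seen. As for the mu-class glutathione transferases, these genes are close in sequence, and how far their probes read each other's transcripts was not tested.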
